A study of Pangasianodon hypophthalmus with 14 samples.

Results

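Genes of hair cells and of the inner ear were followed through early development of tra catfish (*Pangasianodon hypophthalmus*), taking 8 gene names and keeping the rows of the deposited count table that carry exactly those names. Of the 8 names, 6 had a row (*tmie*, *ush1c*, *ush1g*, *tecta*, *otog* and *otop1*), out of 21656 genes in the table. The names *otof* and *tmc1* had no row of that name. Through the name table of a later assembly (fPanHyp1.pri), *tmc1* was found as LOC113542592 and the otoferlin paralog *otofa* as LOC113532001, and both are described beside the 6 genes without being counted among them. RNA-seq was done on whole embryos and larvae, with no treatment named, on 7 days after fertilization (given as dpf), namely 2, 4, 6 and 8 and then daily from 9 to 11 dpf. Each stage had 2 libraries, and each replicate was a pool of 4 animals. The study's methods also state that the 2 pools of a stage gave RNA in equal amounts to library construction. Whether the pools were combined is not said, so the 2 libraries of a stage may share RNA. In that case the p-values below measure only the spread between libraries.

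Hair cells are the mechanosensory cells of the inner ear and, in fish, of the lateral line. Deflection of their bundle of stereocilia pulls on tip links, which open a channel complex at the stereocilia tips. Its opening leads on to calcium-driven transmitter release at ribbon synapses. Acellular gels lie over the sensory patches and couple sound, gravity and water movement to the bundles, and in the ear of fish these gels hold the otoliths. *tmc1* encodes a pore-forming subunit of the channel and *tmie* an accessory subunit. *ush1c* (harmonin) and *ush1g* (Sans) encode scaffold proteins that anchor the upper end of the tip link, and their human counterparts are Usher syndrome genes. Otoferlin is the calcium sensor for exocytosis at the ribbon synapse. *tecta* (alpha-tectorin) and *otog* (otogelin) encode glycoproteins of the gels, and in zebrafish both are needed for tethering of the otoliths. *otop1* (otopetrin 1) encodes a proton channel needed for otolith formation in zebrafish and for otoconia in mouse.

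Counts assigned to genes ran from 4112131 to 11609823 per library. A gene with 3 counts, taken as the detection floor, stood at between 0.289 and 0.72 CPM (counts of a gene per 1000000 counts of the library, after its total was multiplied by edgeR's TMM factor). Within a pair of libraries the chi-square per gene, for which sampling of reads alone gives about 1, was 29.6 at 4 dpf and 18.7 at 2 dpf. It was 3.69 at 8 dpf, 3.84 at 10 dpf, and 1.13, 1.15 and 1.29 at 6, 9 and 11 dpf. The libraries of 4 dpf therefore stood farthest apart, and values resting on 1 of them are named as such. Those of 6, 9 and 11 dpf differed by little more than sampling of reads, and an alternative below sums them within stage. Whether these pairs are repeats of 1 RNA was not tested. If they are, comparisons with these stages rest on fewer independent samples than libraries. The spread was estimated in 1 fit of all 14 libraries, so the close pairs also enter the standard errors and p-values of the other comparisons. Tissue markers expected of a whole body were present, with all 21 markers found in the table at or above a mean of 1 CPM at every stage. In bulk RNA from whole animals, fewer cells of a type and less RNA per cell cannot be told apart, and neither can be told from growth of the other tissues.

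Genes that define hair cells were counted at very different depths. *pou4f3*, the transcription factor required for hair cell survival in mouse, held 0 to 2 counts in every library, which is under the floor. *atoh1*, which specifies hair cells, held 6 to 27 counts. *myo7a*, a myosin of the hair bundle, held 44 to 131 counts, and *slc17a8*, the vesicular glutamate transporter of hair cells, 8 to 78.

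The 6 genes did not all share 1 course. *tecta*, *otog* and *tmie* had their highest stage mean at 4 dpf and their lowest between 9 and 11 dpf. For each of these 3 genes the 6 early libraries (2 to 6 dpf) were all above the 6 late ones (9 to 11 dpf). The libraries of 8 dpf are in neither group, and *tmie* had a higher mean at 8 dpf (1.71 CPM) than at 6 dpf (1.24 CPM). Over all genes tested, 8.45% had their early libraries all above the late ones and 7.36% all below. *otop1* followed the same course with overlap between early and late libraries, and *ush1c* and *ush1g* did not. A stage was judged by edgeR's quasi-likelihood test in 1 fit of all 14 libraries, with Benjamini-Hochberg adjustment over 19310 genes. A gene was called where its log2 fold change (log2FC) went beyond 1 in size with an adjusted p below 0.05. Tested over all stages at once (adjusted p under 0.05 and a fitted range beyond 1), 4 of the 6 genes were called, against 50.8% of all genes. With so many genes changing over development, the count itself says little about the ear, and what follows describes size and timing.

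**Figure D1:**
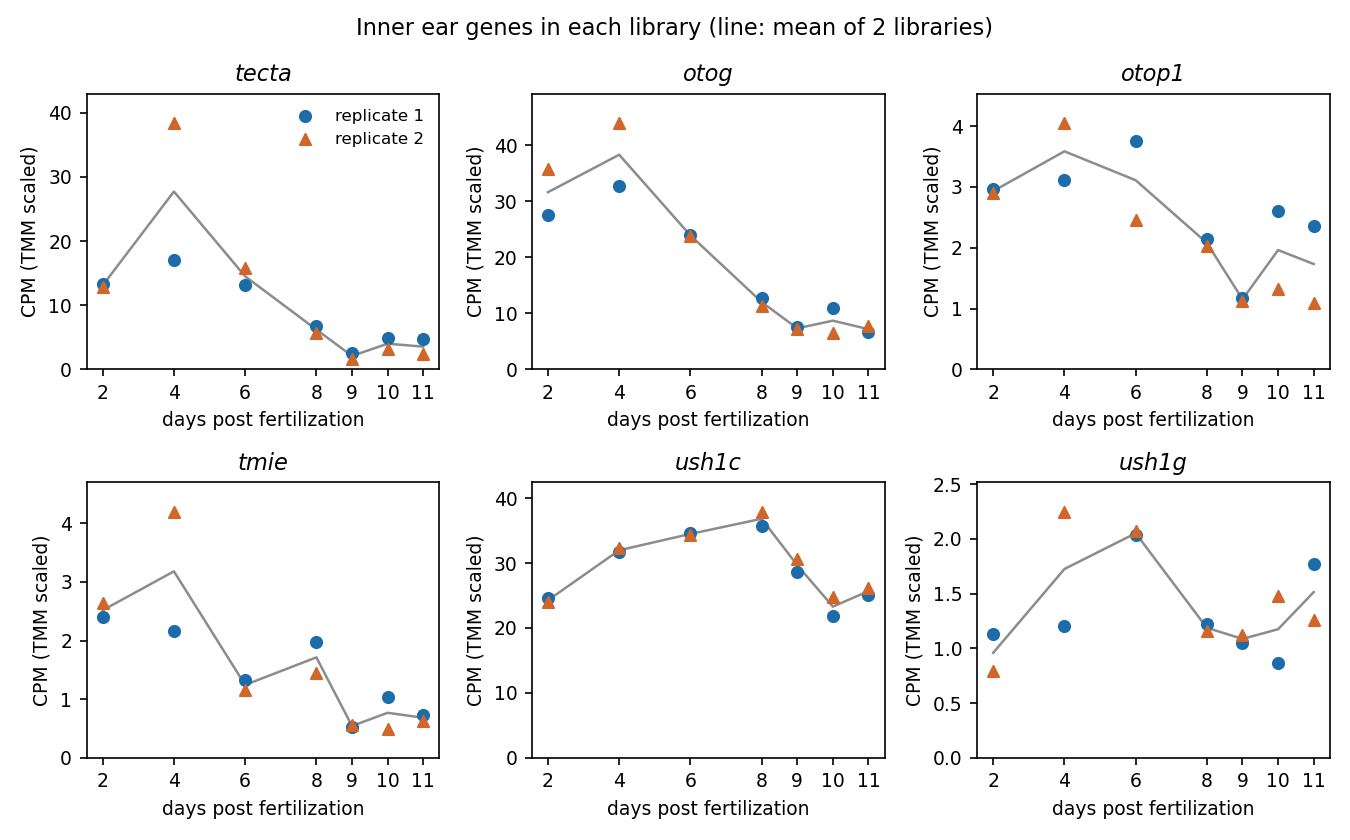
CPM (TMM scaled, linear axis from 0) of the 6 genes at each stage in dpf, with 1 point per library and a line through the mean of 2 libraries. The early libraries of *tecta* lie between 12.9 and 38.4 CPM and the late ones between 1.69 and 4.86, while *ush1c* stays between 21.9 and 37.9 CPM throughout.

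*tecta* showed the widest range. Its libraries stood at 13.3 and 12.9 CPM at 2 dpf, 17.0 and 38.4 at 4 dpf, 13.2 and 15.8 at 6 dpf, 6.71 and 5.68 at 8 dpf, 2.49 and 1.69 at 9 dpf, 4.86 and 3.13 at 10 dpf, ending with 4.73 and 2.35 at 11 dpf. Both libraries of 4 dpf were above all others, the libraries of 2 and 6 dpf overlapped, and those of 9, 10 and 11 dpf were the lowest. In read counts the drop was from 94 and 98 at 2 dpf to 32 and 15 at 11 dpf. *tecta* rose from 2 to 4 dpf by 1.13 in log2FC (standard error 0.29, adjusted p = 0.00441, edgeR). This rise rests on replicate 2 of 4 dpf, without which it was 0.39 and was not called. *tecta* fell by 1.24 from 6 to 8 dpf (standard error 0.32, adjusted p = 0.0117, edgeR). The call was lost without replicate 2 of 6 dpf, without replicate 2 of 8 dpf, or when the libraries of 6, 9 and 11 dpf were summed within stage, although the log2FC then stayed between -1.22 and -1.10. From 4 to 6 dpf (-0.99, adjusted p = 0.013) and from 8 to 9 dpf (-1.54, adjusted p = 0.0577) the values missed a threshold of the edgeR test, the first on size and the second on p. The first was called without replicate 1 of 4 dpf (-1.41) or without replicate 2 of 6 dpf (-1.11), and the second without either library of 4 dpf (-1.53 and -1.51). Over the whole span *tecta* was lower at 11 than at 2 dpf by a log2FC of -1.87 (standard error 0.37, adjusted p = 0.000689, edgeR), which is 3.65-fold. It was -2.47 without replicate 1 of 11 dpf, and -1.46 when replicate 2 of that stage was left out.

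*otog* descended over the same stages. Its CPM were 27.5 and 35.7 at 2 dpf, 32.6 and 43.9 at 4 dpf, 24.0 and 23.8 at 6 dpf, 12.7 and 11.4 at 8 dpf, 7.47 and 7.17 at 9 dpf, 10.9 and 6.42 at 10 dpf, ending with 6.65 and 7.69 at 11 dpf. The libraries of 2 and 4 dpf overlapped, 6 dpf was below both, 8 dpf was below 6 dpf, and the 3 last stages overlapped below 8 dpf. The largest adjacent step was from 6 to 8 dpf, a log2FC of -1.0 (standard error 0.20, adjusted p = 0.00251, edgeR), which stands at the threshold for size. The call was lost in 17 of 24 alternative settings, with values between -1.21 and -0.91 over those 24. From 4 to 6 dpf the value was -0.70 (adjusted p = 0.0097, edgeR) and from 8 to 9 dpf -0.70 (adjusted p = 0.096, edgeR). Between 2 and 11 dpf *otog* fell by 2.14 (standard error 0.22, adjusted p = 8.71e-07, edgeR), a 4.41-fold difference and the largest of the 6 genes over that span.

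*tmie* was counted thinly. Its counts were 17 and 20 at 2 dpf, 9 and 28 at 4 dpf, 13 and 9 at 6 dpf, 13 and 15 at 8 dpf, 4 and 4 at 9 dpf, 6 and 3 at 10 dpf, ending with 5 and 4 at 11 dpf. In CPM the early libraries lay between 1.16 and 4.20 and the late ones between 0.494 and 1.04. At 8 dpf (1.98 and 1.44 CPM) both libraries were above those of 6 dpf (1.32 and 1.16), so that the descent was not even. *tmie* fell by 1.41 from 4 to 6 dpf (standard error 0.39, adjusted p = 0.0119, edgeR), a call that was lost without replicate 2 of 4 dpf (-0.76), without either library of 6 dpf, in DESeq2 (adjusted p = 0.0664), with only the 4 libraries of these stages, and with libraries summed within stage. From 8 to 9 dpf the value was -1.59 (standard error 0.52, adjusted p = 0.0882, edgeR), and it was called without either library of 4 dpf (-1.59 and -1.56). Over the whole span it was -1.85 (standard error 0.48, adjusted p = 0.00478, edgeR), or 3.61-fold lower at 11 dpf.

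*otop1* moved in the same direction by less. It had 21 and 22 counts at 2 dpf, 13 and 27 at 4 dpf, 37 and 19 at 6 dpf, 14 and 21 at 8 dpf, 9 and 8 at 9 dpf, 15 and 8 at 10 dpf, ending with 16 and 7 at 11 dpf. The 2 libraries of 10 dpf (2.60 and 1.32 CPM) and of 11 dpf (2.36 and 1.10 CPM) lay far apart within each pair, where those of 8 and 9 dpf lay close. Its lowest stage was 9 dpf (1.15 ± 0.04 CPM, SD, n = 2) and its highest 4 dpf (3.59 ± 0.66 CPM, SD, n = 2). A stage effect was called (adjusted p = 0.0231, edgeR, fitted range 1.65), but no pair of stages compared here was. Between 11 and 2 dpf the log2FC was -0.74 (standard error 0.41, adjusted p = 0.152, edgeR), and it became a call only when libraries were scaled by their totals alone (-1.02, adjusted p = 0.0431).

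*ush1c* was the most even of the 6. Its libraries stood at 24.6 and 24.0 CPM at 2 dpf, 31.7 and 32.2 at 4 dpf, 34.7 and 34.3 at 6 dpf, 35.7 and 37.9 at 8 dpf, 28.7 and 30.7 at 9 dpf, 21.9 and 24.7 at 10 dpf, ending with 25.1 and 26.2 at 11 dpf. The highest stage was 8 dpf (36.8 ± 1.57 CPM, SD, n = 2) and the lowest 10 dpf (23.3 ± 1.99 CPM, SD, n = 2). When the stages were ordered by their means, neighbours did not overlap except 2 and 10 dpf. The stage effect had an adjusted p of 0.00089 in edgeR's test but a fitted range of 0.66, under the size asked for, and 75.3% of all genes tested had an adjusted p under 0.05 at any size. The difference between 11 and 2 dpf was 0.08 (standard error 0.13, adjusted p = 0.647, edgeR). Its sign turned with library totals alone (-0.20).

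Harmonin is also a scaffold of the intestinal brush border, where it binds the cadherin tails that link microvilli. Of 16 brush border genes tested apart from *ush1c*, 12 were called higher and 0 lower at 4 than at 2 dpf (13.8% of all genes were called higher), with a median log2FC of 1.89 against 0.00 over all genes. Among them *fabp2*, the intestinal fatty acid binding protein, rose by 3.47 (standard error 0.19), *cdhr5a* by 2.50 (standard error 0.34) and *cdhr2* by 2.46 (standard error 0.28), both of these being microvillus cadherins. *lct* (lactase) went from 2 and 4 counts to 92 and 14. The summed level of the 16 genes lay between 479 and 530 CPM at 2 dpf and between 1907 and 1945 CPM at 11 dpf, and none was at 0. Over the same span *ush1c* changed by 0.08, and the part of gut RNA in its level was not tested.

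*ush1g* was thinly counted. It had between 5 and 20 counts per library. The highest stage was 6 dpf with 20 and 16 counts (2.05 ± 0.03 CPM, SD, n = 2), and the lowest 2 dpf with 8 and 6 (0.96 ± 0.24 CPM, SD, n = 2). Most neighbours in the order of stages overlapped, the exception being 11 dpf above 8 dpf. The largest step was from 2 to 4 dpf, a log2FC of 0.92 (standard error 0.47, adjusted p = 0.119, edgeR). No comparison was called, and the test of all stages gave an adjusted p of 0.167 (edgeR). Its log2FC had standard errors between 0.39 and 0.49 over the 7 comparisons.

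**Figure D2:**
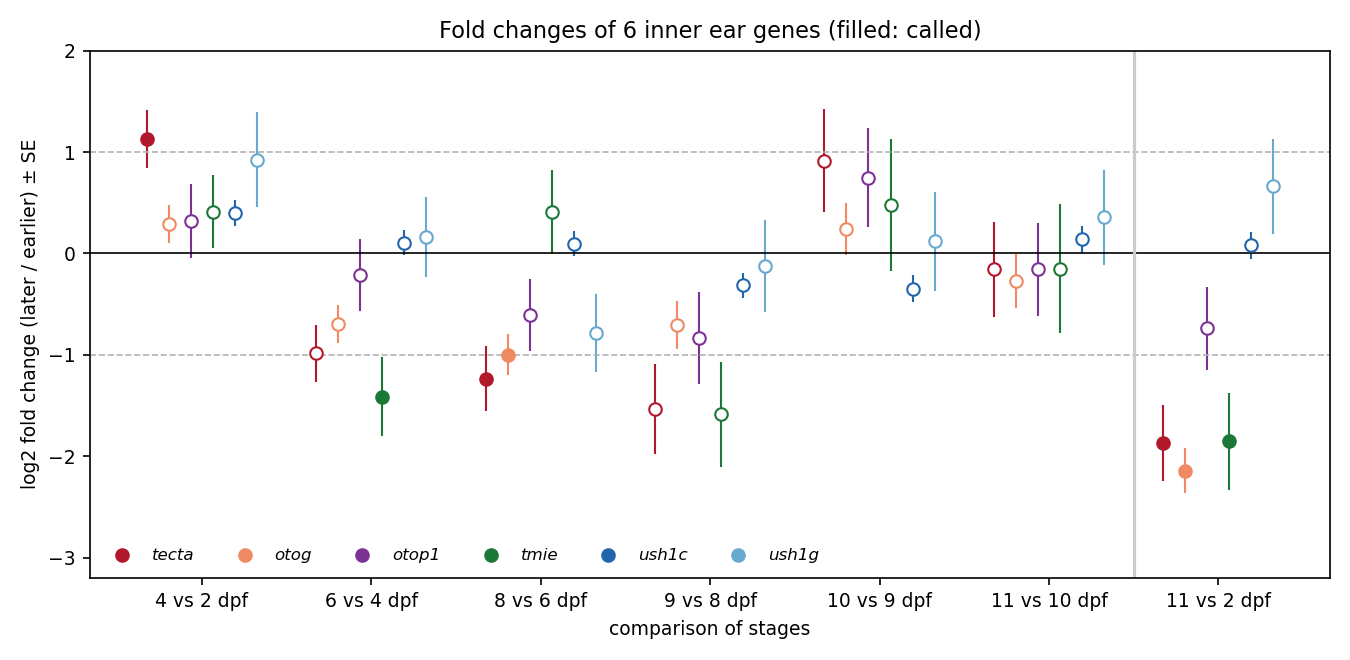
log2 fold change (later over earlier stage) with its standard error for the 6 genes in 6 adjacent comparisons and in 11 against 2 dpf, filled where called and open where not, with dashed lines at the size threshold. The 3 filled points of 11 against 2 dpf are *tecta* (-1.87), *otog* (-2.14) and *tmie* (-1.85).

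The same 6 genes were then read step by step. From 2 to 4 dpf all 6 had a positive log2FC, between 0.29 and 1.13, and 1 was called (*tecta*), where 19.8% of all genes were. Without replicate 2 of 4 dpf the log2FC of *tecta* was 0.39 and that of *tmie* was negative. From 4 to 6 dpf 4 of 6 were negative and 1 was called (*tmie*, lower). Of all genes 11.3% were called in either direction, 4.81% higher and 6.48% lower. At any size 3 of the 6 had an adjusted p under 0.05, but no share of all genes at that rule is given here. From 6 to 8 dpf 2 were called lower (*tecta* and *otog*) and none higher, where 5.74% of all genes were called, 3.02% higher and 2.72% lower. From 8 to 9 dpf all 6 were negative, between -1.59 and -0.12 with a median of -0.77, against a median of -0.05 over all genes. None of the 6 was called there by edgeR (1.28% of all genes were), and DESeq2 called 1, *tecta*. At any size 4 had an unadjusted p under 0.05 in edgeR. No share of all genes by unadjusted p is given here, so such counts cannot be weighed against it. From 9 to 10 dpf (1.01% of all genes called) and from 10 to 11 dpf (1.14%, of which 0.699% higher) edgeR and DESeq2 called 0 of the 6, and 1 and 0 of them had an unadjusted p under 0.05 in edgeR. Between 11 and 2 dpf 3 of 6 were called, all lower, in edgeR and in DESeq2, against 8.22% of all genes called lower.

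The deafness gene *tmc1*, read as LOC113542592, held 0 to 7 counts per library and was left out of the test by the filter on low counts. Its counts were 4 and 1 at 2 dpf, 6 and 4 at 4 dpf, 3 and 7 at 6 dpf, 1 and 3 at 8 dpf, 7 and 2 at 9 dpf, 1 and 0 at 10 dpf, ending with 2 and 6 at 11 dpf. No order of stages can be read from these values. Its paralogs *tmc2a* (LOC113531434) and *tmc2b* (LOC113542593), which carry mechanotransduction in hair cells of zebrafish together with *tmc1*, were counted slightly better, and *tmc2b* lies next to *tmc1* in the fPanHyp1.pri assembly. *tmc2a* went from 7 and 9 counts at 2 dpf to 13 and 29 at 4 dpf and to 3 and 3 at 11 dpf. *tmc2b* went from 8 and 6 to 11 and 17 and to 4 and 5. Both rose from 2 to 4 dpf, *tmc2a* by 1.80 (standard error 0.46, adjusted p = 0.00432, edgeR) and *tmc2b* by 1.42 (standard error 0.43, adjusted p = 0.0134, edgeR). *tmc2a* was then lower at 6 than at 4 dpf (log2FC -1.49, adjusted p = 0.0128, edgeR), and *tmc2b* lower at 8 than at 6 dpf (log2FC -1.40, adjusted p = 0.0472, edgeR). Both of these later calls were lost in DESeq2, which called 1 gene of this list from 2 to 4 dpf and 0 in each later adjacent step. With 1 library left out, the list had 1 to 3 genes called higher from 2 to 4 dpf (1 without replicate 2 of either stage), and the call from 4 to 6 dpf was lost without replicate 2 of 6 dpf. The call from 6 to 8 dpf was lost without any 1 library of 6 to 11 dpf. How reads that match more than 1 of these genes were counted is not given in the sources used here.

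*otofa*, read as LOC113532001, was well counted. Its libraries stood at 17.2 and 15.3 CPM at 2 dpf, 26.6 and 36.6 at 4 dpf, 18.4 and 19.2 at 6 dpf, 11.4 and 14.3 at 8 dpf, 9.95 and 12.9 at 9 dpf, 11.1 and 9.72 at 10 dpf, ending with 15.8 and 17.3 at 11 dpf. Both libraries of 4 dpf were above all others, and those of 11 dpf were back among those of 2 dpf. From 2 to 4 dpf its log2FC was 0.98 (standard error 0.18, adjusted p = 0.000351, edgeR), just under the size threshold, and from 4 to 6 dpf -0.77 (standard error 0.17, adjusted p = 0.00323, edgeR). From 10 to 11 dpf it was 0.67 (standard error 0.21, adjusted p = 0.081, edgeR). The difference between 11 and 2 dpf was 0.03 (standard error 0.19, adjusted p = 0.923, edgeR), where *tecta*, *otog* and *tmie* differed by -2.14 to -1.85.

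Other genes of the same roles were taken from lists of gene names, with the 8 names above and *otofa* left out. They are bulk levels of whole animals, and many of these genes are active in other tissues too. The matrix and otolith list had 14 of 20 names in the table, all tested. At 4 against 2 dpf 6 of 14 were called higher and 0 lower (13.8% of all genes were called higher), with a median log2FC of 0.77 against 0.00 over all genes. The median was 0.50 without replicate 2 of 4 dpf, and it was 0.46 when replicate 2 of 2 dpf was left out. The largest were *spp1* (osteopontin, also a bone gene) with 4.74 (standard error 0.21), *otop2* with 4.21 (standard error 0.20), *stm* (starmaker, a protein of the otolith matrix in zebrafish) with 2.08 (standard error 0.17) and *zpld1* (a zona pellucida domain protein of cupulae) with 1.72 (standard error 0.25). With library totals alone 4 were called higher and 2 lower.

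In later steps the median of the matrix list was negative from 4 to 9 dpf and 0.48 from 9 to 10 dpf. At 11 against 10 dpf it was 0.08, and between -0.10 and 0.27 with 1 library left out. Called lower from 4 to 6 dpf were *stm* (-1.59) and *tectb* (-1.35), 2 of 14 with 0 higher, where 6.48% of all genes were called lower. The median of that step was -0.38, and between -0.59 and -0.23 with 1 library left out. From 6 to 8 dpf 4 of 14 were called lower and 0 higher (2.72% of all genes were called lower). They were *zpld1b* (-2.04, standard error 0.50, on few counts at 8 dpf), *otop2* (-1.84), *zpld1* (-1.27) and *otogl* (-1.11, otogelin-like). Without replicate 2 of 6 dpf, or without replicate 2 of 8 dpf, 2 of them were called. From 8 to 9 dpf 5 of 14 were called lower and 0 higher, against 0.818% of all genes, with a median log2FC of -0.59 against -0.05. The largest of these were *stm* (-1.91, adjusted p = 3.51e-05, edgeR), *zpld1* (-1.68), *otomp* (-1.61, an otolith matrix protein) and *otogl* (-1.29). This count fell to 1 without replicate 2 of 8 dpf, without either library of 9 dpf or with libraries summed within stage, and to 3 without replicate 1 of 8 dpf. From 9 to 10 dpf 11 of 14 log2FC were positive, and 2 genes were called higher and 0 lower (0.792% and 0.218% of all genes). These were *stm* by 1.48 (adjusted p = 0.000145, edgeR) and *spp1* by 1.05 (adjusted p = 0.00231, edgeR). This count was 1 without either library of 9 dpf or replicate 1 of 10 dpf, 4 without either library of 4 dpf, and 0 with libraries summed within stage.

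*stm* had its lowest libraries at 9 dpf. They stood at 50.1 and 60.1 CPM at 2 dpf, 244 and 224 at 4 dpf, 81.6 and 73.6 at 6 dpf, 72.8 and 69.6 at 8 dpf, 19.3 and 18.7 at 9 dpf, 63.2 and 43.1 at 10 dpf, ending with 70.1 and 65.4 at 11 dpf. *tecta*, *otop1* and *tmie* also had their lowest stage mean at 9 dpf, and *otog* at 11 dpf. Unlike those of *stm*, their libraries of 9 dpf were not apart from all later ones. They overlapped with 11 dpf for *tecta*, *otop1* and *otog*, and with 10 dpf for *tmie*. The tectorin partner *tectb* (beta-tectorin) stood at 9.03 and 7.64 CPM at 2 dpf and at 1.92 and 1.57 CPM at 11 dpf, a log2FC of -2.24 (standard error 0.29, adjusted p = 9.07e-06, edgeR), beside -1.87 for *tecta*. *otogl*, the paralog of *otog*, had 9.88 and 13.3 CPM at 2 dpf, 3.01 and 2.53 at 9 dpf, ending with 7.24 and 6.43 at 11 dpf. *otop2*, the paralog of *otop1* known from gut epithelium in mammals, had 4.37 and 6.19 CPM at 2 dpf, 82.8 and 113 at 4 dpf, down to 9.90 and 9.10 at 11 dpf.

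Over the whole span the matrix list was divided, with 2 called higher and 4 lower of 14 (12.6% and 8.22% of all genes) and a median of -0.23 against -0.06 over all genes. The number higher rose to 4 without replicate 1 of 2 dpf, and it was 1 when replicate 2 of 11 dpf was left out. *spp1* was higher at 11 dpf by 4.71 (standard error 0.21) and *tectb* lower by -2.24. *oc90*, an otoconin, had 10 and 15 counts at 2 dpf and 1 and 1 at 11 dpf, and *zpld1b* had 13 and 9 and then 1 and 1. These last values are under the floor, so no fold is given for them.

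**Figure D3:**
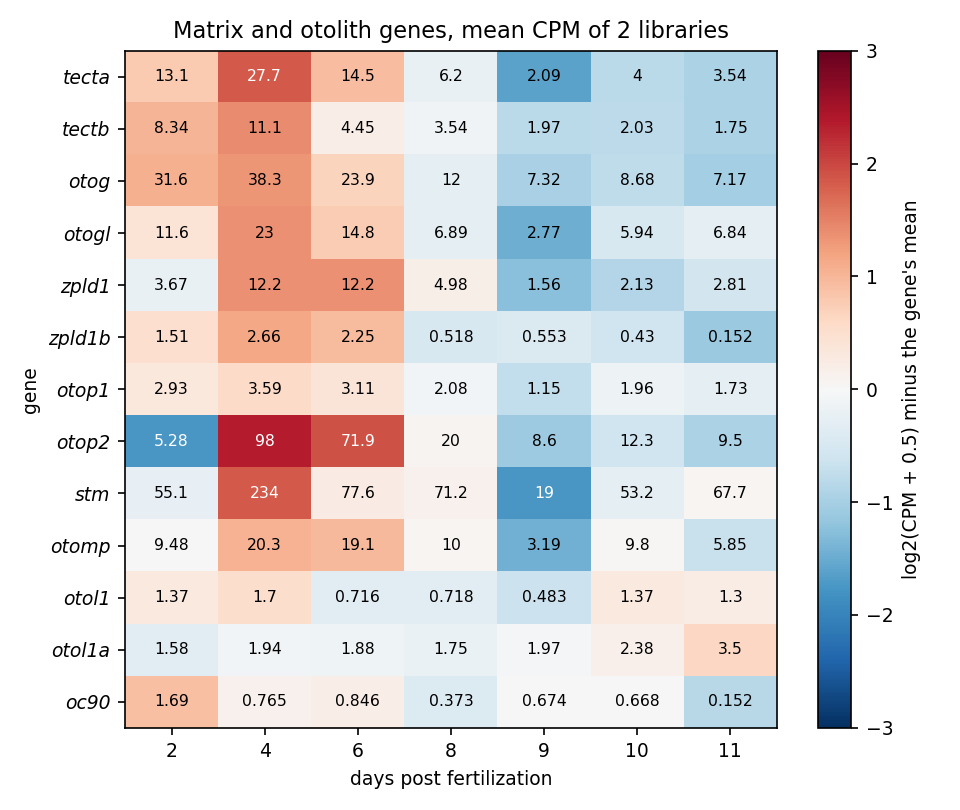
Mean CPM of 2 libraries (numbers in the cells, not corrected for gene length, so to be read along a row) at each stage in dpf for *tecta*, *otog*, *otop1* and 10 other matrix and otolith genes. Not drawn from the matrix list are *spp1*, *sparc*, *umodl1* and *igsf10*, with log2FC of 4.71, 0.80, 0.99 and -1.36 at 11 against 2 dpf. Colour is log2(CPM + 0.5) minus the mean of the gene over the stages, and the lowest cells of *tecta* (2.09), *otogl* (2.77), *stm* (19.0) and *otomp* (3.19) are at 9 dpf.

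Of the transduction list (tip link and channel complex), 10 of 13 names were in the table and 8 were tested. At 4 against 2 dpf 2 were called higher, both *tmc2* genes above, and 0 lower, where 13.8% of all genes were called higher. *cdh23*, a cadherin of the tip link, was the only one called between 11 and 2 dpf (8.22% of all genes were called lower and 12.6% higher). It stood at 21.6 and 28.3 CPM at 2 dpf and at 12.0 and 11.6 CPM at 11 dpf, a log2FC of -1.08 (standard error 0.18, adjusted p = 0.000116, edgeR), which was no longer called without replicate 2 of 2 dpf. The median of the list over that span was -0.34 against -0.06 over all genes, but -0.08 without replicate 1 of 2 dpf, -0.10 without replicate 1 of 11 dpf, and between -0.21 and -0.20 without replicate 1 of 4 dpf or either library of 10 dpf. From 8 dpf on edgeR called 0 of the 8 in each adjacent step, where 1.28%, 1.01% and 1.14% of all genes were called. The count was 0 also at an unadjusted p under 0.05 with the same fold, and DESeq2 called 0 of 10.

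The hair bundle list had 25 tested genes of 43 names. At 4 against 2 dpf 4 were called higher and 0 lower, with a median of 0.29, a share near the 13.8% of all genes called higher. They were *xirp2a* (1.73, also an actin-binding protein of muscle), *myo3a* (1.59), *strc* (1.25, stereocilin) and *myo15a* (1.14). From 6 to 8 dpf 3 were called lower and 1 higher (2.72% and 3.02% of all genes), with *gipc3* at -1.37, *loxhd1* at -1.24, *strc* at -1.02 and *xirp2a* at 1.42, and 1 to 3 were lower when 1 library was left out (1 without replicate 1 of 6 dpf or replicate 2 of 8 dpf) and 0 with libraries summed within stage. Without replicate 2 of 4 dpf the median at 4 against 2 dpf was 0.05 and 3 were called higher and 1 lower. Between 11 and 2 dpf 1 was higher (*xirp2a*, 1.56) and 3 were lower, *pjvk* (-1.45, pejvakin), *strc* (-1.45) and *whrn* (-1.07, whirlin), against 12.6% and 8.22% of all genes. Of the lower calls 1 stood without replicate 2 of 2 dpf or of 11 dpf and 2 without either replicate 1, and 6 were lower with library totals alone.

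Of the synapse and calcium list, 18 genes were tested of 36 names. At 4 against 2 dpf 6 were called higher and 0 lower (13.8% of all genes were called higher), among them *s100s* (2.80), *cabp2b* (2.63), *pvalb8* (1.99) and *calb2* (1.46), all of them calcium-binding proteins. The median of that step was 0.23 against 0.00 over all genes. It lay between 0.01 (without replicate 1 of 2 dpf) and 0.45 with 1 library left out. From 4 to 6 dpf 5 were called lower and 0 higher (6.48% of all genes were called lower), with *s100s* at -1.77, *s100t* at -1.67, *pvalb8* at -1.49 and *cabp2b* at -1.40. From 6 to 8 dpf 5 were called lower and 1 higher (*ctbp2*, 1.16), against 2.72% and 3.02% of all genes. *slc17a8* fell by 1.62 in that step (standard error 0.43, adjusted p = 0.0131, edgeR), *s100s* had a log2FC of -1.53, and *cabp2b* went from 10 and 10 counts to 1 and 3. Between 11 and 2 dpf 2 were called higher, *cabp1b* (1.72) and *pvalb8* (1.28), and 1 lower, *s100t* (-2.00), against 12.6% and 8.22% of all genes. The median over that span was 0.20 against -0.06 over all genes, with 13 of 18 positive. It lay between 0.07 and 0.42 with 1 library left out. With libraries summed within stage, 3 were called lower from 4 to 6 dpf and 2 from 6 to 8 dpf. Leaving out 1 library gave 3 to 5 and 1 to 5, with the lowest counts without replicate 2 of 4 or 6 dpf and without replicate 2 of 8 dpf.

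*slc17a8* had 2.54 and 4.21 CPM at 2 dpf, 5.28 and 11.7 at 4 dpf, 3.86 and 5.05 at 6 dpf, and between 1.13 and 2.10 in all later libraries. Its highest library of all was replicate 2 of 4 dpf, as it was for *tecta*, *otog*, *otop1*, *tmie*, *ush1g* and *otofa*. That library was the higher of its pair for all 6 genes.

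Of the transcription factors of the ear and of hair cells, 22 were tested (35 names). At 4 against 2 dpf 6 were called lower and 0 higher, where 5.99% of all genes were called lower and 13.8% higher, with a median of -0.46. *pax2b* (-2.92), *pax8* (-1.66) and *sox10* (-1.41), early otic and neural crest regulators, were among them, and *pax5* went from 17 and 26 counts to 3 and 3. *atoh1* was at -0.38 in that step and was not called. The pan-neuronal genes, taken as markers of another cell type, moved in the same direction from 2 to 4 dpf, with a median of -0.42, 12 of 15 negative, 2 called lower and 1 higher, and their summed level went from between 551 and 633 CPM to between 445 and 448 CPM. Their median was -0.18 without replicate 1 of 2 dpf, and it was -0.25 when replicate 2 of 4 dpf was left out. From 4 to 6 dpf the median of the transcription factors was 0.39, with 15 of 22 positive. It lay between 0.22 and 0.38 with 1 library left out. In that step 1 was called higher and 0 lower, against 4.81% and 6.48% of all genes. Between 11 and 2 dpf 4 transcription factors were called lower and 1 higher, against 8.22% and 12.6% of all genes. *sox10* was not among them (0.08). *pax2b* was lower by -1.80, *atoh1* by -1.79 (standard error 0.40, adjusted p = 0.00177, edgeR) and *isl1* by -1.43, while *gfi1b*, which is also a blood cell factor, was higher by 1.46. That higher call was lost with library totals alone, at 10 counts in each library, in DESeq2, with libraries summed within stage, without replicate 1 of 11 dpf, and when any 1 library of 2, 8 or 9 dpf was left out. With library totals alone 8 were lower, and 6 without replicate 1 of 2 dpf. The summed pan-neuronal level at 11 dpf lay between 607 and 612 CPM.

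From 8 to 9 dpf all 6 ear genes had a negative log2FC, but of the ear lists only the matrix list had a negative median. The median was 0.28 for the transduction list (6 of 8 positive) and 0.05 for the hair bundle list (14 of 25 positive). It was 0.05 for the synapse list (10 of 18 positive) and 0.03 for the transcription factors (12 of 22 positive). With 1 library left out, the transduction median lay between -0.10 and 0.54 and the hair bundle median between -0.08 and 0.11. The lists of other tissues went both ways. The median of the pan-neuronal list was 0.43, with 13 of 15 positive, and 0.26 without replicate 2 of 8 dpf. The median of the brush border list was -0.42, with 13 of 16 negative. Neither list had a gene called by edgeR or DESeq2 in that step (at an unadjusted p under 0.05 with the same fold 0 and 1). Among the whole-body markers 1 of 21 was called, *prss1*, a trypsinogen of the pancreas, with a log2FC of -1.19. In that step 1.28% of all genes were called. The part of neural, gut or pancreatic tissue in the levels of the ear genes was not tested.

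**Figure D4:**
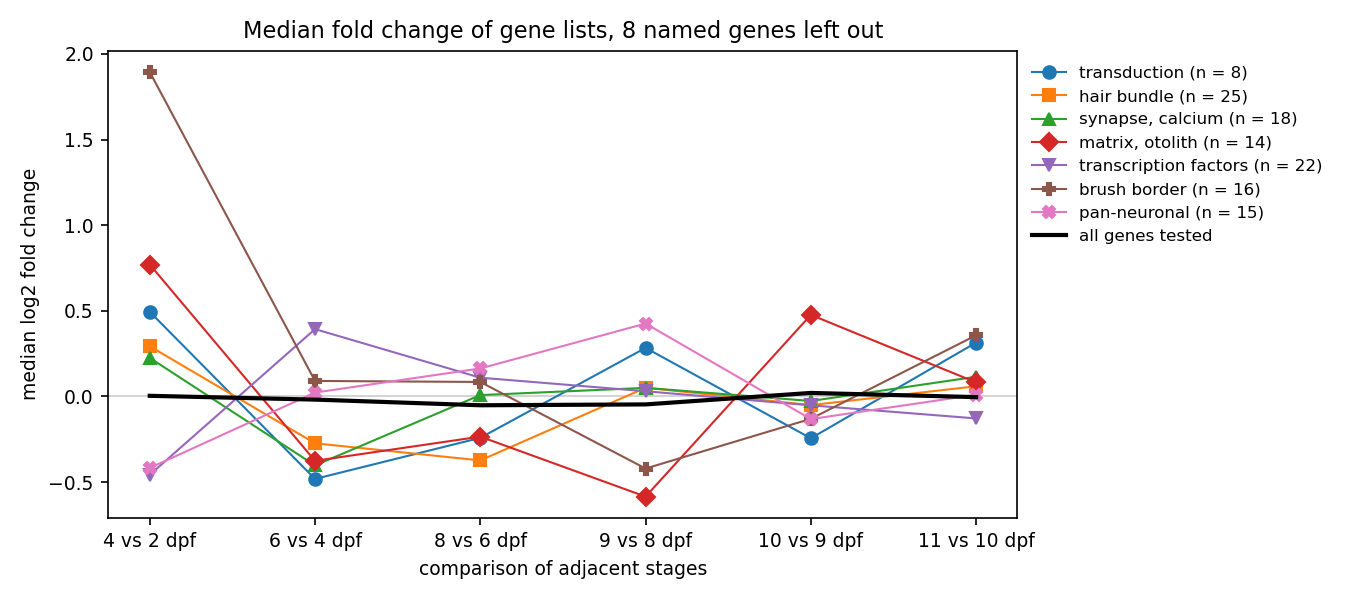
Median log2 fold change (y axis) of 7 gene lists and of all genes tested (black) in the 6 adjacent comparisons of stages (x axis). The legend gives the number of genes tested, and the lists leave out the 8 names and *otofa*. The matrix and otolith list goes from 0.77 at 4 against 2 dpf (0.50 without replicate 2 of 4 dpf) to -0.59 at 9 against 8 dpf, and all genes stay between -0.05 and 0.02.

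Across the 14 libraries the log2 CPM of *tecta*, *otog*, *otop1* and *tmie* followed each other, with Pearson's r between 0.82 and 0.94 for the 6 pairs of these genes. *ush1c* and *ush1g* had r between 0.09 and 0.44 with the others and with each other. These are descriptions over libraries that share stages in pairs and a common scaling. By the highest r among genes with a symbol and a mean of at least 5 CPM (8414 or 8415 candidates), *otog* was most like *smim15* (r = 0.98, Spearman's rho = 0.98) and *slc35b4* (r = 0.98, rho = 0.96), and *tecta* most like *lcmt1* (r = 0.97, rho = 0.97) and *sgf29* (r = 0.97, rho = 0.92). *tmie* was most like *lrpap1* (r = 0.96, rho = 0.93). *otop1* was most like *tecta* itself (r = 0.91, rho = 0.89), followed by *cenpk* (r = 0.91, rho = 0.90). For *ush1c* the nearest were *mme* (r = 0.86, rho = 0.84) and *dnttip2* (r = 0.85, rho = 0.91), and for *ush1g* they were *fam3a* (r = 0.91, rho = 0.75) and *epdr1* (r = 0.91, rho = 0.79). Nothing on shared function follows from these values.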

How the data were processed

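Whole embryos and larvae were sequenced after ribosomal RNA depletion, 2 libraries at each of 7 stages. The authors used Trimmomatic 0.36 for trimming, STAR 2.7.0 for alignment to GENO_Phyp_1.0 and HTSeq-count for counting (mode and strand setting not given in the sources used here). The deposited table holds these raw counts for 21656 genes and 14 libraries, with 0 unused sample columns. Totals between 4112131 and 11609823 make 3 counts worth 0.289 to 0.72 CPM, and these floors cover counting error only.

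Genes passed filterByExpr (19310), and 1 quasi-likelihood fit with TMM scaling (edgeR 4.0.16, R 4.3.3) gave each comparison and the test of all stages. Calls required a log2FC beyond 1 in size and, after Benjamini-Hochberg adjustment, p under 0.05. The authors tested adjacent stages with DESeq2. Standard errors are the log2FC divided by the square root of F. LOC identifiers were named through the name table of fPanHyp1.pri (10538 of 11307 found, 6917 with a symbol). No coordinates or sequences are given, as no genome of the build was used here.

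The genes, lists and tests were chosen with earlier results of these data known. Genes named were the 8 names and their paralogs, the 2 genes most like each of the 6 (1 of these is not reported here), and up to 4 called genes per list and comparison with the largest log2FC. Values of *atoh1*, *myo7a*, *pou4f3* and *slc17a8* were given as a check of the tissue. Alternatives were DESeq2 1.42.0, scaling by RLE or by library totals, a filter of 10 counts in each library or none, p left unadjusted, fits of 4 libraries only, a block for the replicate number, each library left out in turn, and the libraries of 6, 9 and 11 dpf summed within stage. Crossing the 2 dpf numbers in the block was chosen after seeing the data. On simulated data with 200 genes changed 4-fold between 8 and 6 dpf (19310 genes), edgeR recovered 197 with 0 false calls and DESeq2 184 with 0. The test of all stages recovered 199 with 7 false calls in edgeR and 198 with 2 in DESeq2. Libraries were simulated as independent and with the same dispersion at every stage. The unequal pairs of these data and changes smaller than 4-fold were therefore not covered. Figures were drawn with matplotlib 3.10.9.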

Additional observations from a re-analysis of the deposited data

How the results depend on the processing

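The lower levels of *tecta*, *otog* and *tmie* at 11 than at 2 dpf kept their direction and their call under each alternative that could be fitted (23 for *tmie*, which at least 10 counts in every library leaves out, and 24 for the others), and library totals added *otop1*. Among these alternatives the unadjusted p could not lose a call, and most of the libraries left out belong to stages other than 2 and 11 dpf. The adjacent steps were less firm. With library totals alone 0 genes were called between 4 and 2 dpf, and leaving out 1 library gave 0 to 1. Between 6 and 4 dpf RLE scaling gave 2 calls, while at least 10 counts in every library (3 genes tested), DESeq2, the fit on 4 libraries and the summed pairs gave 0, and leaving out 1 library 0 to 2. Between 8 and 6 dpf RLE scaling, no filter, DESeq2, the fit on 4 libraries and the crossed block gave 1, the summed pairs 0, and leaving out 1 library 0 to 2. Between 9 and 8 dpf no filter, DESeq2 and the fit on 4 libraries (4 genes tested) gave 1, unadjusted p 2, and leaving out 1 library 0 to 2. With at least 10 counts in every library 2 genes had a stage effect, and leaving out 1 library gave 3 to 4. Apart from fewer genes being tested, the cause was not tested. Differences between replicates correlated between stages at -0.16 to 0.06 over 21 pairs of stages, with -0.16 between 2 and 4 dpf. The libraries of 6, 9 and 11 dpf differed by little more than sampling of reads. Correlations with these stages could therefore hardly show a pairing, and whether the replicate numbers pair the libraries stays undecided. With the replicate block 1, 1, 2, 0, 0, 0 and 3 genes were called in the order of the comparisons, as without it. With the 2 dpf numbers crossed the counts were 1, 1, 1, 0, 0, 0 and 3. Where leaving out a library leaves 1 in a stage, that library is assumed to vary as the others do.

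Directions that turned were all of values not called. With 1 library left out, values at 4 against 2 dpf ranged from -0.21 to 0.73 for *tmie* (lowest without replicate 2 of 4 dpf), and at 6 against 4 dpf from -0.13 to 0.78 for *ush1g* and from -0.57 to 0.0398 for *otop1* (0.0387 without replicate 2 of 4 dpf). At 10 against 9 dpf they ranged from -0.13 to 0.92 for *tmie*, -0.32 to 0.44 for *ush1g* and -0.19 to 0.58 for *otog*. At 11 against 10 dpf they ranged from -0.60 to 0.46 for *tmie*, -0.75 to 0.25 for *tecta* (0.19 without replicate 1 of 10 dpf), -0.61 to 0.16 for *otog* and -0.82 to 0.40 for *otop1* (0.28 without replicate 2 of 11 dpf). Library totals turned *ush1c* to -0.11 (8 against 6 dpf) and -0.20 (11 against 2 dpf) and *ush1g* to 0.0044 (9 against 8 dpf). Leaving out TMM moved the median of all genes by -0.25 (4 against 2 dpf), -0.21 (8 against 6 dpf), 0.13 (9 against 8 dpf) and -0.28 (11 against 2 dpf). Counts were lowest for *tmie*, *ush1g*, *otop1* and *tmc1*, which had 3 to 28, 5 to 20, 7 to 37 and 0 to 7 counts per library.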
